A study of Mus musculus with 24 samples.

Results

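The mouse Toll-like receptors measured here are 10 genes, Tlr1, Tlr2, Tlr3, Tlr4, Tlr5, Tlr6, Tlr7, Tlr8, Tlr9 and Tlr13, taken by their gene symbols from the 21671 genes that each expression table lists. All 10 were found in all 24 samples. No cut on their measured values was used to choose them, but earlier results of these data were known when they were chosen. A further 2 receptors of the same family, Tlr11 and Tlr12, are given with the other genes of the pathway.

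The samples are RNA-Seq libraries from spleens of 8 week old mice on the C57/Bl6 background. B cells were taken with magnetic beads against B220, and "non-B cells" are the cells that passed through the column, a mixture of T cells, myeloid cells and others. Trp53+/+ mice and Trp53-/- mice (in which the gene for p53 is deleted in all cells, not in B cells alone) were either left as control (mock) or exposed to 7 Gy of whole-body ionizing radiation (IR) with spleens taken 4 h later, which gives 8 groups of cell type, genotype and treatment. Each Trp53+/+ group holds 4 samples and each Trp53-/- group holds 2, and the plots name the genotypes wt and null. The comparisons ask how receptor transcripts differ between the fractions, how they change after IR, and whether that change depends on p53.

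Toll-like receptors are membrane proteins of innate immune cells that bind microbial products and signal through the adaptors MyD88 and TRIF to NF-kB and interferon regulatory factors. Tlr1, Tlr2, Tlr6, Tlr4 and Tlr5 act at the cell surface, where Tlr2 pairs with Tlr1 or Tlr6 to bind bacterial lipopeptides, Tlr4 binds lipopolysaccharide and Tlr5 binds flagellin. Tlr3, Tlr7, Tlr8, Tlr9 and Tlr13 act in endosomes, where they bind nucleic acids: double-stranded RNA for Tlr3, single-stranded RNA for Tlr7 and Tlr8, unmethylated CpG DNA for Tlr9 and bacterial ribosomal RNA for Tlr13. Splenic B cells are known to respond to CpG DNA and to lipopolysaccharide, and macrophages, dendritic cells and neutrophils carry most receptors of the family.

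The genes lie on 7 chromosomes of the mm9 build (NCBIM37), and 2 clusters hold 4 of them. Tlr1 (chr5:65316050-65324000) and Tlr6 (chr5:65344345-65351287) are neighbours on the minus strand of chromosome 5, and Tlr8 (chrX:163680626-163702261) and Tlr7 (chrX:163742861-163768490) are neighbours on the minus strand of the X chromosome, which also carries Tlr13 (chrX:103338543-103355832, plus strand). The others are Tlr2 (chr3:83640195-83645689, minus strand), Tlr3 (chr8:46481019-46495962, minus strand), Tlr4 (chr4:66488618-66591318, plus strand), Tlr5 (chr1:184884919-184906175, plus strand) and Tlr9 (chr9:106124929-106129207, plus strand). Tlr1 and Tlr6 hold near-identical exonic sequence. Of the 50-base words in the transcripts, 454 were shared, which is 17.4% of those of Tlr1 and 17.8% of those of Tlr6, and no other pair of members shared any. Reads that fall inside a shared stretch cannot be told apart between these 2 genes, so their values are uncertain to that extent. The longest shared stretch, 229 exonic bases at chr5:65316776-65317004 in Tlr1 and chr5:65345067-65345295 in Tlr6 (both on the minus strand), is shown to make this visible.
Tlr1 and Tlr6 shared run: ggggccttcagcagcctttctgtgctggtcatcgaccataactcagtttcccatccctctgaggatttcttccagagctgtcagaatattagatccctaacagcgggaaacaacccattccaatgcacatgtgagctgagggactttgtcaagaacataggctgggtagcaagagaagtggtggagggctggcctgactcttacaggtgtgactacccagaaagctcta

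The 250 bases before the RefSeq transcription starts were searched for 5 motifs on both strands: PU.1 (GAGGAAGT), the interferon-stimulated response element (GAAA, any 2 bases, GAAA), NF-kB (GGGA, any base, TTTCC), AP-1 (TGANTCA) and the p53 half-site. The promoter table is of build GRCm38.p6 and held 8 of the 10 members, with no entry for Tlr4 or Tlr7. Matches stood in 4 members and are printed in capitals, 5′ to 3′, in the windows below, which are shown because each holds a match. Tlr1 and Tlr9 were the members higher in B cells under both treatments. Tlr3 and Tlr6 fell after IR in B cells, as did Tlr2, whose window held no match. The windows of Tlr5, Tlr8 and Tlr13 held none either. Tlr1 and Tlr6 each had another listed start site without a match, and the distances below are from the start site of the window shown. Tlr1 held the PU.1 letters 23 to 16 bases before the start, a word found in 2.44% of 32851 such windows. Tlr3 held the NF-kB letters 211 to 202 bases before the start (0.356% of windows), and Tlr9 held the AP-1 letters 58 to 52 bases before it (6.75% of windows). Tlr6 held the interferon element on the opposite strand, in 2 overlapping copies 116 to 107 and 110 to 101 bases before the start (2.98% of windows). The p53 half-site, present in 7.13% of windows, was in none of the members' windows. These matches describe letters only.
Tlr1 (chr5:64933559-64933808, minus strand): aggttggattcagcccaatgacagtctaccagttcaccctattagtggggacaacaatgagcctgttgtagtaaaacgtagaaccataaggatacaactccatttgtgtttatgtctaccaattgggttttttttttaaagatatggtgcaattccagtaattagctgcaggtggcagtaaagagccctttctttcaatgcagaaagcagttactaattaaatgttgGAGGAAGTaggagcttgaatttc
Tlr3 (chr8:45410381-45410630, minus strand): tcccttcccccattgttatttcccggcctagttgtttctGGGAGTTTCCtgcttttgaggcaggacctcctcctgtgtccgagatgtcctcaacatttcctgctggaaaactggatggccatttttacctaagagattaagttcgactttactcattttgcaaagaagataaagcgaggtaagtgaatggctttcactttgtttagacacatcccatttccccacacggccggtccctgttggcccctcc
Tlr6 (chr5:64959167-64959416, minus strand): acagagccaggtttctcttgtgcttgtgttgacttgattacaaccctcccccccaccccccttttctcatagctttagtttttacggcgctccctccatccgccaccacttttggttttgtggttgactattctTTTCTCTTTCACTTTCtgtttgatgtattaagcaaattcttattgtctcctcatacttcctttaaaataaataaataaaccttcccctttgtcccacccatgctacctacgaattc
Tlr9 (chr9:106222348-106222597, plus strand): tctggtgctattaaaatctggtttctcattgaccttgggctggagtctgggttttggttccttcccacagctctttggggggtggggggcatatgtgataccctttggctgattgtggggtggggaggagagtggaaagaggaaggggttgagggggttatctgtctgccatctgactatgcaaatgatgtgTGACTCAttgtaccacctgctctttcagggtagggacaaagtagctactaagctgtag

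Values are RPKM, reads per kilobase of exon scaled to the total of exon reads of the library, so levels of different receptors may be set side by side. The depth estimated from the steps between low values was 4.7 to 10.84 M exon reads per sample. The p53 target Cdkn1a rose from 0.893 to 1.36 RPKM to 82.3 to 97.8 RPKM in Trp53+/+ B cells and stayed at 0.562 to 0.726 RPKM in all Trp53-/- B cell samples. Trp53 itself was still read at 21.6 to 41.8 RPKM in Trp53-/- B cells. In 4 irradiated Trp53+/+ libraries (B cell replicates 1 and 2, non-B cell replicates 3 and 4), 35.8% to 51.3% of 1440 olfactory and vomeronasal receptor genes, which spleen cells do not use, had a value above 0, against 5.42% to 24.7% in the other 20. All 9 B cell markers were higher in B cells, and all 10 T cell, 8 NK cell, 12 neutrophil and 8 dendritic cell markers were higher in non-B cells. The fractions were not pure: the summed B cell markers read 356 to 572 RPKM in mock Trp53+/+ non-B cells against 1068 to 1246 RPKM in B cells, and 8 of 16 macrophage and monocyte markers, such as C1qa at 102 against 45.6 RPKM, were higher in the B cell fraction.

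In mock Trp53+/+ B cells Tlr1 was the most abundant receptor, followed by Tlr9 and Tlr7, while Tlr5 was close to undetected. The group means ran from 79.8 ± 4.02 RPKM for Tlr1 (SD, n = 4) over 59.8 ± 5.42 for Tlr9, 54.1 ± 3.88 for Tlr7 and 33.2 ± 4.71 for Tlr4 to 11.2 ± 1.54 for Tlr6 and 0.252 ± 0.043 for Tlr5. Tlr1 stood above Tlr9 in every sample, Tlr9 and Tlr7 overlapped, and Tlr4 stood apart from both Tlr7 above it and Tlr8 below it. Tlr8, Tlr2, Tlr13, Tlr3 and Tlr6 followed, each overlapping the next. Tlr5 rested on an estimated 5.4 to 9.8 reads per library. In mock Trp53+/+ non-B cells the leading receptors were Tlr13 at 46.4 ± 12.5 RPKM (SD, n = 4), Tlr1 at 44.7 ± 3.25 and Tlr7 at 39.6 ± 4.88, and no neighbours in the order differed beyond their spread until the step from Tlr6 (15.4 ± 4.28) to Tlr3 (5.01 ± 1.15). Tlr5, the lowest, was at 4.75 ± 2.07 RPKM.

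**Figure D1:**
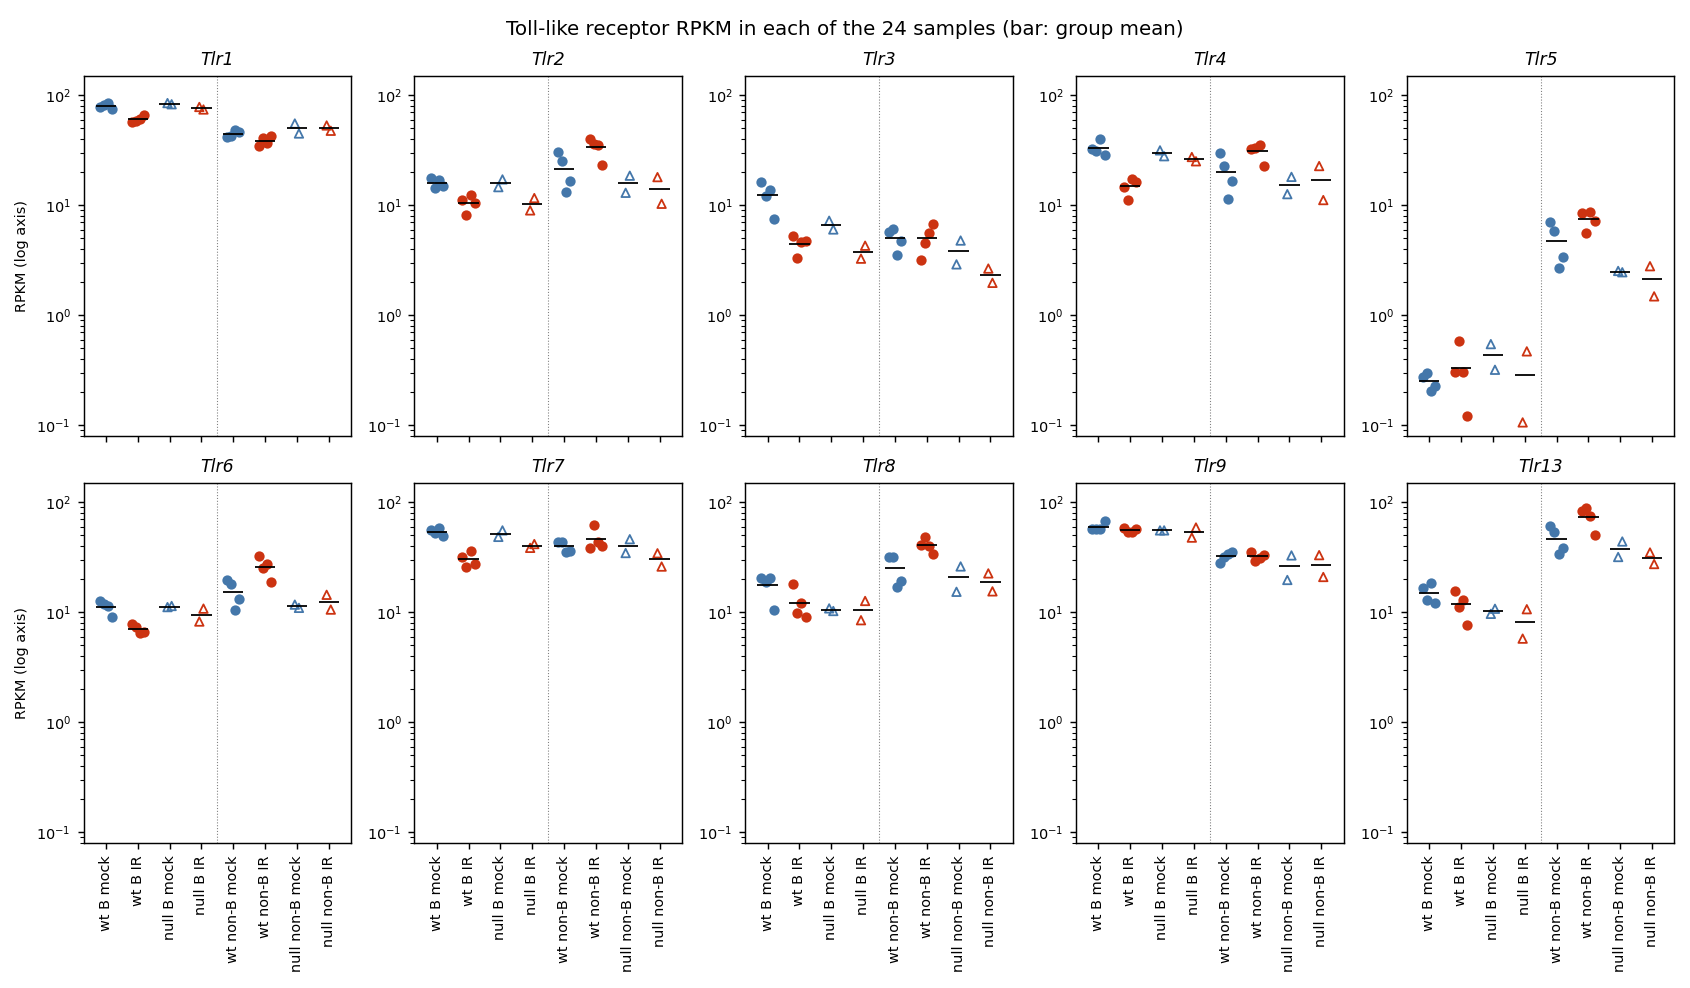
RPKM of each receptor (y axis, logarithmic) in every sample of the 8 groups (x axis); filled circles are Trp53+/+ samples, open triangles Trp53-/- samples, blue mock, red IR, and bars are group means. Tlr5 sat below 1 RPKM in every B cell sample and above 1 RPKM in every non-B cell sample, and Tlr4 in irradiated Trp53+/+ B cells lay at 11.3 to 17.3 RPKM, below all other B cell samples.

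Between mock Trp53+/+ fractions, 6 of the 10 receptors passed the test (limma on log2(RPKM + 0.5), Benjamini-Hochberg adjusted p under 0.05 and an absolute log2 difference above 0.58), against 24.6% of all 14598 genes tested. Tlr1, Tlr3, Tlr4 and Tlr9 were higher in B cells and Tlr5 and Tlr13 were lower. Groups did not overlap for 6 members, against 41.7% of all genes: Tlr4 overlapped and Tlr7 did not. An exact two-sided permutation test of 4 against 4 samples cannot go below p = 0.0286, which those 6 members reached.

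Tlr9, which binds CpG DNA, was higher in the B cell fraction. The B cell samples read 56.7, 56.9, 57.5 and 67.9 RPKM and the non-B samples 28.0, 31.7, 33.8 and 35.2, and the groups stood apart with a log2 difference of 0.89 (SE 0.082, limma adjusted p = 3.33e-07). Tlr1 showed the same order, with 77.7, 81.3, 84.6 and 75.5 RPKM against 41.3, 42.6, 48.1 and 46.7, a difference of 0.83 (SE 0.076, limma adjusted p = 2.88e-07). Tlr1 is the partner of Tlr2, yet Tlr2 itself did not pass (log2 difference -0.34, limma adjusted p = 0.228). Tlr3 was higher in B cells by 1.19 (SE 0.24, limma adjusted p = 8.06e-04). Its values were 16.1, 12.01, 13.6 and 7.49 RPKM there and 5.72, 6.09, 3.53 and 4.70 in non-B cells. Tlr4 differed by 0.78 (SE 0.23, limma adjusted p = 0.0114), but its non-B samples spread from 11.3 to 29.9 RPKM and reached into the B cell range of 28.8 to 39.8 RPKM. Without non-B replicate 3 its difference was 0.54, below the fold threshold. Without non-B replicates 3 and 4 together Tlr4 did not pass, and Tlr2, Tlr6 and Tlr8 passed as lower in B cells. Tlr7 was higher in B cells by 0.45 with a limma adjusted p of 0.0157, also below the fold threshold.

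Tlr13 and Tlr5 marked the non-B fraction. Tlr13 read 60.3, 53.4, 33.6 and 38.5 RPKM in non-B cells against 16.7, 12.97, 18.5 and 12.1 in B cells, a log2 difference of -1.57 (SE 0.23, limma adjusted p = 3.33e-05). Tlr5 read 7.09, 5.85, 2.71 and 3.35 RPKM in non-B cells and 0.205 to 0.300 in B cells, a difference of -2.72 on the scale with the pseudocount (SE 0.25, limma adjusted p = 2.93e-07). Tlr5 passed the filter on low values only through its non-B samples. For Tlr2, Tlr6 and Tlr8 the difference did not pass the test, with log2 values between -0.48 and -0.34.

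The Trp53-/- samples gave the same comparison in other libraries, with 2 samples a group. Of the 10 receptors 4 passed in mock cells (17.1% of all genes) and the same 4 in irradiated cells (26.2% of all genes): Tlr1 and Tlr9 higher in B cells, Tlr5 and Tlr13 lower. Here too Tlr5 passed the filter on low values only through its non-B samples. In mock Trp53-/- cells the Tlr9 values were 55.5 and 55.5 RPKM in B against 19.7 and 32.9 in non-B samples (log2 difference 1.11, limma adjusted p = 0.0221). Tlr13 read 9.67 and 10.8 RPKM against 31.8 and 44.0 (log2 difference -1.82, limma adjusted p = 0.00303). With so few samples single libraries decided some of these calls. In mock cells Tlr9 had a limma adjusted p of 0.0971 without B cell replicate 1, 0.109 without B cell replicate 2 and 0.0955 without non-B replicate 1, and Tlr5 had 0.0921 without B cell replicate 2. After IR, Tlr9 had 0.0563 and 0.101 without B cell replicates 1 and 2 and 0.141 without non-B replicate 2, and Tlr1 fell to a difference of 0.56 and 0.52, under the fold threshold, without B cell replicate 1 and non-B replicate 2, and to 0.52 and 0.50 under median-ratio scaling and quantile normalization.

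**Figure D2:**
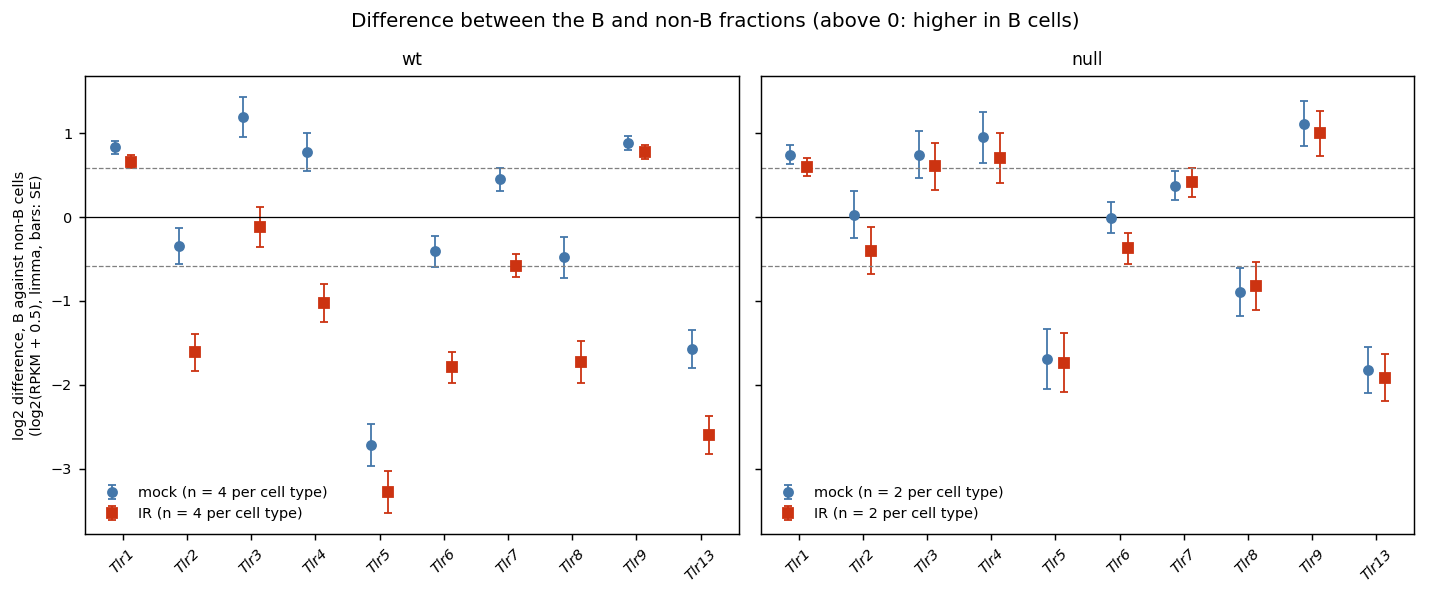
Difference in log2(RPKM + 0.5) between B and non-B cells for each receptor (y axis; above 0 is higher in B cells), in mock (blue) and irradiated (red) mice, wt on the left (n = 4 per group) and null on the right (n = 2 per group); bars are standard errors and dashed lines the threshold of 0.58. In wt mice Tlr4 moved from 0.78 in mock to -1.03 after IR, whereas Tlr9 stayed at 0.89 and 0.78.

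After IR, 5 of the 9 receptors tested fell in Trp53+/+ B cells and none rose, against 24.7% of all 13821 genes called in either direction and 12.2% called downward. The receptors that fell were Tlr3, Tlr4, Tlr7, Tlr6 and Tlr2. The median log2 fold change over the 9 was -0.59, and over all genes it was 0.01. Mock and IR samples did not overlap for 6 of the 10 members (Tlr1, Tlr2, Tlr3, Tlr4, Tlr6 and Tlr7; exact two-sided permutation p = 0.0286 each, the smallest this design allows), where 46.2% of all genes did not overlap. In bulk samples, fewer cells of a type and less RNA per cell cannot be told apart.

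Among surface receptors, Tlr4 fell the most. It read 32.7, 31.3, 39.8 and 28.8 RPKM in mock B cells and 14.7, 11.3, 17.3 and 16.2 after IR. The highest irradiated sample was well below the lowest mock sample, and the log2 fold change was -1.14 (SE 0.13, limma adjusted p = 1.19e-05). Tlr6 fell from 11.2 ± 1.54 to 7.04 ± 0.674 RPKM (SD, n = 4 each), by 0.63 on the log2 scale (SE 0.12, limma adjusted p = 8.37e-04). Tlr2 fell from 15.96 ± 1.57 to 10.5 ± 1.76 RPKM, by 0.59 (SE 0.13, limma adjusted p = 0.00223). Both lay near the fold threshold. Tlr2 went below it, to -0.54, -0.56 and -0.47, without mock replicate 1, mock replicate 3 and IR replicate 2, and Tlr6 to -0.57 without mock replicate 1. Quantile normalization gave -0.56 for Tlr2 and -0.579 for Tlr6, under the threshold, which left 3 calls. Tlr2 was also under it with median-ratio scaling, with a pseudocount of 1, with the olfactory and vomeronasal receptor level as a covariate and after a correction for removed duplicates. Tlr1 fell from 79.8 ± 4.02 to 60.9 ± 3.92 RPKM, a change of -0.39 (SE 0.060, limma adjusted p = 1.66e-04) that did not reach the fold threshold. Tlr5, at 0.121 to 0.586 RPKM after IR, was below the expression filter and had no fitted value, and its exact permutation p was 0.571.

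Among endosomal receptors, Tlr3 and Tlr7 fell and the others did not pass. Tlr3 read 16.1, 12.01, 13.6 and 7.49 RPKM in mock B cells and 5.21, 3.31, 4.66 and 4.77 after IR, a log2 fold change of -1.33 (SE 0.21, limma adjusted p = 2.00e-04). Tlr7 read 56.1, 52.3, 58.4 and 49.7 RPKM before and 31.9, 26.0, 36.2 and 27.2 after, a change of -0.83 (SE 0.10, limma adjusted p = 1.94e-05). For both genes every irradiated sample was below every mock sample. Tlr9, which shares the trafficking chaperone Unc93b1 with Tlr3 and Tlr7, read 56.7 to 67.9 RPKM before and 53.4 to 58.2 after (log2 fold change -0.10, 95% interval -0.27 to 0.07, limma adjusted p = 0.293). Tlr8 (-0.51, limma adjusted p = 0.0912) and Tlr13 (-0.36, limma adjusted p = 0.191) had overlapping groups. Tlr8 passed without mock replicate 4 (-0.74, limma adjusted p = 0.0116) or without IR replicate 1 (-0.71, limma adjusted p = 0.0199).

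The calls for Tlr3, Tlr4, Tlr6 and Tlr7 were also made without B cell IR replicates 1 and 2, the libraries with reads on olfactory receptor genes, at log2 fold changes of -1.25, -0.96, -0.74 and -0.77. Tlr2 was then at -0.47, under the fold threshold.

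In Trp53-/- B cells 1 of the 9 receptors passed after IR, against 24.3% of all genes. This was Tlr2, which read 14.6 and 17.2 RPKM in mock and 8.97 and 11.6 RPKM in irradiated cells (log2 fold change -0.61, SE 0.18, limma adjusted p = 0.0179). That call was lost without mock replicate 2 (limma adjusted p = 0.127) or IR replicate 1 (0.158), and with all 24 samples in 1 fit (0.151). Tlr3 (-0.74, limma adjusted p = 0.0631) and Tlr7 (-0.37, limma adjusted p = 0.0519) lay outside the call, and Tlr3 passed without either of 2 Trp53+/+ libraries that share its fit (0.0184 without mock replicate 4, 0.0486 without IR replicate 2).

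The IR response in B cells differed between the genotypes for 1 of the 9 receptors, Tlr4, against 12% of all genes. In Trp53-/- B cells Tlr4 read 31.5 and 27.9 RPKM in mock and 27.4 and 25.1 in irradiated samples, so that every irradiated Trp53-/- sample was above every irradiated Trp53+/+ sample. Its change was -0.17 there (limma adjusted p = 0.481) against -1.14 in Trp53+/+ cells, a difference of -0.97 (SE 0.22, limma adjusted p = 0.0102). The difference did not pass without Trp53-/- mock replicate 2 (-0.88, limma adjusted p = 0.0557) or without Trp53-/- IR replicate 1 (-0.90, limma adjusted p = 0.0539), nor with all 24 samples in 1 fit (-0.97, limma adjusted p = 0.135). The next was Tlr7 at -0.47 (SE 0.17, limma adjusted p = 0.0767). For Tlr2 the difference was 0.02 with a 95% interval of -0.46 to 0.51. For Tlr3 it was -0.59 with an interval of -1.37 to 0.20, so the 2 Trp53-/- samples per group leave its size open to a wide range.

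**Figure D3:**
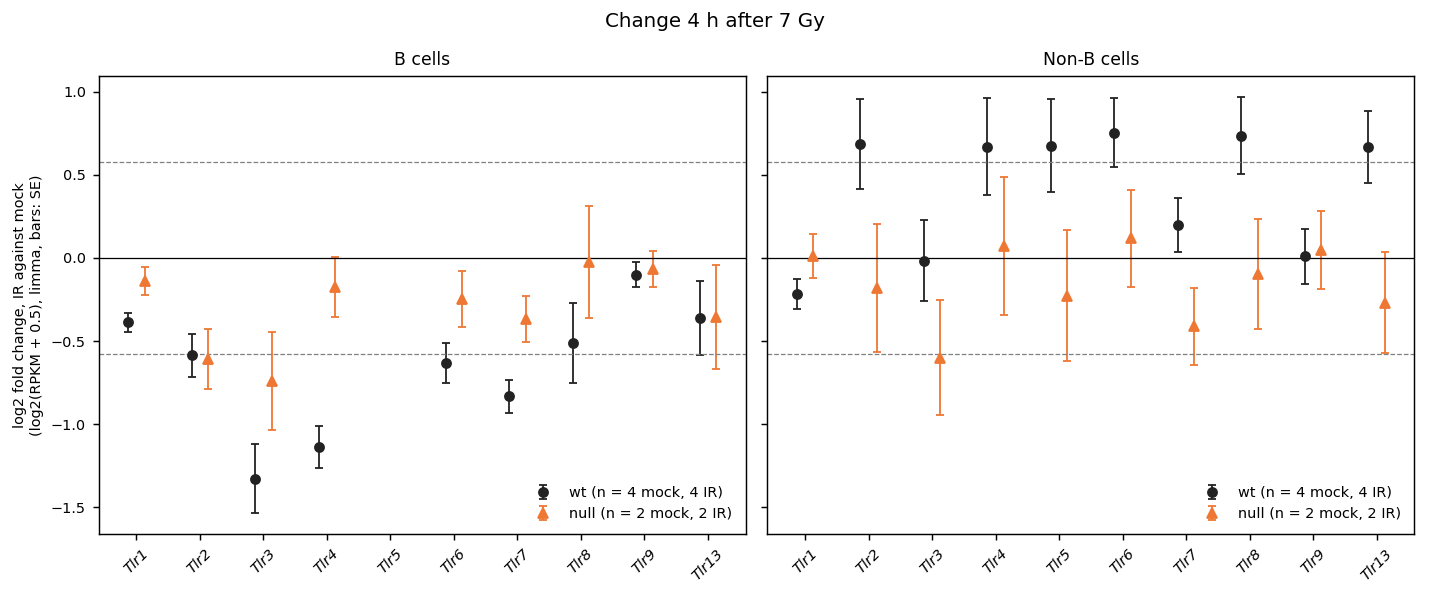
log2 fold change of each receptor 4 h after IR against mock (y axis, limma on log2(RPKM + 0.5), bars are standard errors) in B cells (left) and non-B cells (right), wt as circles and null as triangles; dashed lines mark the threshold of 0.58. Wt B cell values lie between -1.33 and -0.10, wt non-B values of Tlr2, Tlr4, Tlr5, Tlr6, Tlr8 and Tlr13 lie between 0.67 and 0.75, and Tlr5 has no value in B cells.

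In Trp53+/+ non-B cells no receptor fell after IR, and 2 of 10 rose, against 9.85% of all 14018 genes called in either direction and 5.74% called upward. Tlr6 rose from 19.8, 18.0, 10.5 and 13.3 RPKM to 32.3, 25.4, 27.6 and 18.7 (log2 fold change 0.75, SE 0.21, limma adjusted p = 0.0287). Tlr8 rose from 31.9, 31.7, 17.0 and 19.4 RPKM to 40.5, 48.6, 40.1 and 33.7 (0.74, SE 0.23, limma adjusted p = 0.0483). Tlr8 was the only member whose groups did not overlap, where 22.1% of all genes did not. A further 4 receptors had changes of similar size that did not pass: Tlr2 (0.69, limma adjusted p = 0.098), Tlr5 (0.68, 0.108), Tlr4 (0.67, 0.128) and Tlr13 (0.67, 0.0514). A block by replicate number treats same-numbered mock and IR samples of this cell type as pairs, which the labels do not state. With that block, Tlr13 passed (limma adjusted p = 0.0313) beside Tlr6 (0.0194) and Tlr8 (0.0493). Tlr9 (0.01), Tlr3 (-0.02), Tlr7 (0.20) and Tlr1 (-0.22) were closer to 0. The median over the members was 0.67, and over all genes it was -0.03.

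The non-B calls depended on single libraries. Mock replicates 1 and 2 read higher than replicates 3 and 4 for 8 receptors and lower for Tlr1 and Tlr9, for example 60.3 and 53.4 against 33.6 and 38.5 RPKM for Tlr13 and 29.9 and 22.9 against 11.3 and 16.6 RPKM for Tlr4. The same 2 libraries had the higher sums over 12 neutrophil markers (1127 and 1031 against 549 and 713 RPKM) and over 9 erythroid markers (444 and 436 against 163 and 171 RPKM). The marker sum of macrophages and monocytes did not follow that split (668, 733, 646 and 700 RPKM). Left out together, replicates 1 and 2 took the number of members called to 6, with Tlr5 at 1.17, Tlr8 at 1.13, Tlr2 and Tlr4 at 1.12, Tlr6 at 1.08 and Tlr13 at 0.99, and without replicates 3 and 4 none passed. Tlr6 had limma adjusted p values of 0.0589 and 0.0649 without mock replicates 3 and 4, and of 0.0783, 0.0564 and 0.0771 without IR replicates 1, 2 and 3. Tlr8 had 0.109 and 0.112 without mock replicates 3 and 4, 0.0941, 0.112 and 0.10 without IR replicates 1, 2 and 3, and 0.0536 without either irradiated Trp53-/- library. Without mock replicate 1, Tlr2 (0.0463), Tlr5 (0.0474) and Tlr13 (0.0312) passed, and Tlr13 passed without IR replicate 4 (0.0182). Without non-B IR replicates 3 and 4, the non-B libraries with the most olfactory receptor genes read, Tlr6 (0.92, limma adjusted p = 0.044) and Tlr13 (0.91, limma adjusted p = 0.0395) passed and Tlr8 (0.87, limma adjusted p = 0.0907) did not. IR replicate 1, with 24.7% of the olfactory and vomeronasal genes above 0, was kept in that run.

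In Trp53-/- non-B cells no member passed after IR (0.442% of all genes), with log2 fold changes from -0.60 for Tlr3 to 0.12 for Tlr6. Tlr13 read 31.8 and 44.0 RPKM in mock and 34.9 and 27.4 RPKM in irradiated samples, and Tlr8 read 15.3 and 26.1 RPKM and 22.6 and 15.5 RPKM, so that both overlapped. No member passed the test of a difference in response between the genotypes in non-B cells either (6.55% of all genes), where the value nearest the threshold was that of Tlr13 (0.94, SE 0.37, limma adjusted p = 0.145). Before IR no receptor passed the test of a difference between the genotypes in B cells (0.0506% of all genes did), nor did any in non-B cells (0.0428%). With 2 Trp53-/- samples a group, a difference could be missed. The change of Tlr3 in mock B cells was -0.80, from 12.3 ± 3.64 RPKM in Trp53+/+ (SD, n = 4) to 7.22 and 6.02 RPKM in Trp53-/- (limma adjusted p = 0.790).

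The response to IR differed between Trp53+/+ B and non-B cells for 7 of 10 receptors, all toward lower values in B cells, against 18.8% of all genes called in either direction and 8.9% downward. The difference was -1.81 for Tlr4 (SE 0.32, limma adjusted p = 6.47e-04), -1.38 for Tlr6, -1.31 for Tlr3, -1.27 for Tlr2, -1.25 for Tlr8, -1.03 for Tlr7 and -1.03 for Tlr13. The last had a limma adjusted p of 0.0245, and of 0.0543 without B cell mock replicate 3 and 0.051 without non-B IR replicate 2. Without non-B mock replicates 3 and 4 together neither Tlr8 (-0.85, limma adjusted p = 0.0742) nor Tlr13 (-0.71, limma adjusted p = 0.118) passed. Without the 4 libraries with olfactory receptor reads Tlr3 did not pass (-0.92, limma adjusted p = 0.0988). Tlr1 (-0.17), Tlr9 (-0.11) and Tlr5 (-0.56) did not pass.

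The order of the fractions turned for Tlr4 and Tlr7, which were higher in B cells in mock mice (Tlr7 by less than the fold threshold) and lower after IR. After IR, 9 of 10 receptors differed between Trp53+/+ fractions (35.6% of all genes), of which Tlr1 (0.66) and Tlr9 (0.78) were higher in B cells. The groups did not overlap for 9 of 10 members, against 51.3% of all genes. Under median-ratio scaling and quantile normalization Tlr1 stood at 0.578 and 0.53, under the fold threshold. Tlr4 was then lower in B cells by 1.03 on the log2 scale (SE 0.23, limma adjusted p = 9.36e-04), at 11.3 to 17.3 against 22.7 to 35.6 RPKM. The Tlr7 difference was -0.581 (limma adjusted p = 0.00177), at 26.0 to 36.2 against 38.6 to 62.5 RPKM, and fell under the fold threshold without B cell replicate 2 (-0.51), B cell replicate 4 (-0.53) or non-B replicate 2 (-0.43). The difference was -2.60 for Tlr13, -1.79 for Tlr6, -1.73 for Tlr8, -1.61 for Tlr2 and -3.28 for Tlr5. Again Tlr5 passed the filter on low values only through its non-B samples. Tlr3 no longer differed detectably (-0.12, limma adjusted p = 0.689).

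Myeloid markers moved closely with some receptors and less so with others. In the B cell fraction, Tlr13 was highest, at 18.5 RPKM, in the mock sample with the highest sum over 16 macrophage and monocyte markers (986 RPKM) and lowest, at 5.76 RPKM, in the irradiated Trp53-/- sample with the lowest (457 RPKM). Tlr4 and Tlr7 followed that sum less. On log2 scales over the 12 B cell samples, Pearson r with it was 0.212 for Tlr4 and 0.422 for Tlr7, against 0.957 for Tlr13. The irradiated Trp53+/+ sample with a sum of 880 RPKM, above 3 of the 4 mock samples (725, 806 and 833 RPKM), had 14.7 RPKM of Tlr4 and 31.9 RPKM of Tlr7, below all mock samples. That sample is a single library, B cell IR replicate 1, in which 36.7% of the olfactory and vomeronasal receptor genes had a value above 0. With the plasmacytoid dendritic cell marker sum, r was 0.717 for Tlr4 and 0.773 for Tlr7. With the erythroid sum it was 0.615 and 0.733. Of the 16 markers, 4 fell after IR in Trp53+/+ B cells (Emr1, Mrc1, Siglec1 and Lyz1) and 1 rose (Marco, from 12.4 to 38.1 RPKM), with a median of -0.28, while the B cell markers had a median of -0.08 with 2 of 9 down. In non-B cells, 1 of 12 neutrophil markers rose (Cxcr2, by 0.82) with a median of 0.27, the macrophage and monocyte markers had a median of 0.23 with 1 up, and 3 of 10 T cell, 2 of 9 B cell and 6 of 9 erythroid markers fell. Over all genes, 24.7% were called after IR in Trp53+/+ B cells (12.2% downward), with a median of 0.01. In Trp53+/+ non-B cells 9.85% were called (5.74% upward), with a median of -0.03. The summed T cell markers read 481 to 698 RPKM in mock and 361 to 476 RPKM in irradiated Trp53+/+ non-B cells. Within the 12 non-B samples, the log2 T cell sum had Pearson r of -0.966 with Tlr8, -0.946 with Tlr13 and -0.902 with Tlr6. For the neutrophil sum these were 0.801, 0.832 and 0.813. Of the macrophage and neutrophil lists, C1qa, Csf1r, S100a8 and Csf3r, which are only examples, were not among the markers called in either fraction. Other members of the same lists were called, among them Emr1, Mrc1, Siglec1, Lyz1 and Marco in B cells and Cxcr2 in non-B cells. The part of cell composition in the receptor values was not tested.

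**Figure D4:**
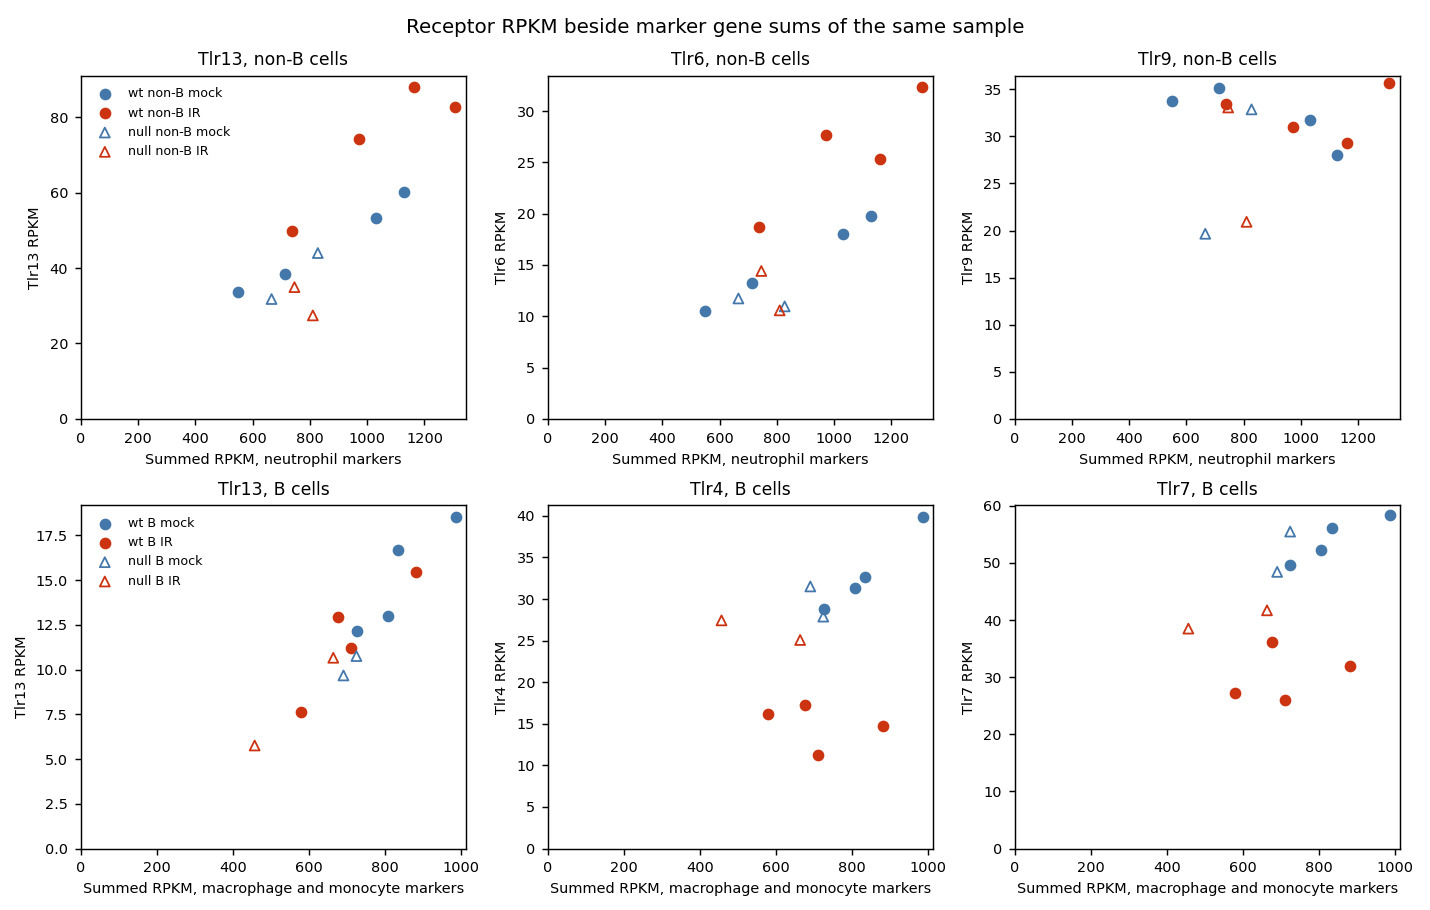
RPKM of receptors (y axes) beside the summed RPKM of marker genes in the same sample (x axes), for neutrophil markers in non-B cells (top) and macrophage and monocyte markers in B cells (bottom); circles are wt, open triangles null, blue mock, red IR. Tlr13 was high in samples with high sums in both fractions, and Tlr9 in non-B cells showed no such order. Tlr4 and Tlr7 in irradiated wt B cells lay below all wt mock samples, at sums of 578 to 880 against 725 to 986 RPKM.

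The other genes of the pathway were counted by role in the same tests. Over all genes, 24.7% were called after IR in Trp53+/+ B cells and 9.85% in Trp53+/+ non-B cells. For the genotype difference in B cells the share was 12%. Of the receptors outside the 10, Tlr11 and Tlr12 both fell in Trp53+/+ B cells, Tlr11 from 2.79 ± 0.638 to 0.912 ± 0.372 RPKM (SD, n = 4 each; log2 fold change -1.24, limma adjusted p = 3.67e-04) and Tlr12 from 5.60 ± 0.977 to 2.45 ± 0.294 RPKM (-1.04). Co-receptors had 2 of 5 tested genes down: Cd180, a relative of Tlr4 on B cells, at 81.9 against 36.5 RPKM (-1.16, limma adjusted p = 7.41e-08), and the scavenger receptor Cd36 (-0.91). Like Tlr4, both differed between the genotypes, Cd180 by -0.78 (limma adjusted p = 0.00119) and Cd36 by -1.68 (limma adjusted p = 9.00e-04). Of 12 trafficking genes 1 fell, Slc15a4, a histidine transporter needed for Tlr7 and Tlr9 signalling (-0.73).

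The signalling genes called in Trp53+/+ B cells went in both directions, where 24.7% of all genes were called. Of 6 adaptors, 2 rose and none fell: Ticam2, the bridge between Tlr4 and TRIF (1.14), and Sarm1 (1.11, at 1.71 RPKM after IR). Of 16 kinases and ubiquitin ligases 1 rose and 2 fell: the interferon pathway kinase Ikbke went from 17.5 to 100 RPKM (2.52, limma adjusted p = 2.29e-07), and Peli1 (-0.71) and Btk (-0.68) fell. Ikbke differed between the genotypes by 2.62 (limma adjusted p = 1.13e-04). None of 4 transcription factors passed. Of 7 inhibitors, Tnfaip8l2 (-0.98) and Sigirr (-0.75) fell and Socs1 (0.69) rose. Of 10 target cytokines tested only Cxcl2 rose (0.83), at 0.786 RPKM. Tnf, named after its values were seen, differed between the genotypes by -1.49 (limma adjusted p = 1.81e-04), with 21.98 RPKM in mock and 19.97 in irradiated Trp53+/+ B cells against 23.5 and 60.6 RPKM in Trp53-/- B cells.

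In Trp53+/+ non-B cells the co-receptor Cd14, which hands lipopolysaccharide to Tlr4, rose from 13.7 to 44.2 RPKM (log2 fold change 1.77, SE 0.42, limma adjusted p = 0.0161). Of 11 target cytokines tested, 5 rose (5.74% of all genes did) and none fell: Cxcl2 (2.47), Il10 (1.61), Il12b (1.35), Cxcl10 (1.03) and Il1b (0.96). The median over the 11 was 0.74. Sarm1 (0.91) and Ikbke (0.66) rose as in B cells, and no gene passed among 12 trafficking genes, 4 transcription factors or 7 inhibitors.

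The genes whose log2 levels were most like those of each receptor over the 24 samples were found among 14688 expressed genes. Because the samples share 2 fractions, a correlation over all of them largely follows the fraction, so the value within each fraction (12 samples) is given beside it as a description. The closest to Tlr13 was Cd300ld, a myeloid receptor gene (Pearson r = 0.992, or 0.913 within B and 0.987 within non-B samples). The closest to Tlr4 was Kctd12 (0.923, with 0.95 and 0.912), to Tlr7 the endosomal syntaxin Stx7 (0.928, with 0.973 and 0.93), and to Tlr2 Ogfrl1 (0.959) followed by Spi1, which encodes PU.1 (0.948, with 0.805 and 0.955). Tlr6 was closest to Irak4, a kinase of its own pathway (0.954, with 0.889 and 0.959), and Tlr8 to the C-type lectin gene Clec4a2 (0.952, with 0.864 and 0.935). The closest to Tlr1 was Eml4 (0.977, with 0.939 and 0.888) and to Tlr3 Pla2g15 (0.898, with 0.934 and 0.779). For Tlr9 and Tlr5 the likeness held less within B cells: Zfp608 was at 0.96 for Tlr9, with 0.491 and 0.797 within the fractions, and Sgms2 at 0.984 for Tlr5, with 0.554 and 0.927. The choice depended on the measure. By Spearman correlation the set of 3 closest genes changed for all 10 receptors, and only Tlr4 and Tlr7 kept their closest gene. For Tlr5, Tlr8, Tlr9 and Tlr13 no gene stayed in the set. Irak4 dropped out for Tlr6 and Spi1 for Tlr2.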

How the data were processed

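The authors aligned ribosomal RNA depleted RNA-Seq reads to mm9 with TopHat (TopHat2 2.0.8 per the labels, another version in the study's methods), kept 1 read of each set of duplicates, counted reads on UCSC genes with featureCounts 1.4.5 and deposited RPKM per gene and sample. The counts are not used here. The library kit marks no strand, so overlapping antisense reads cannot be told apart. Because duplicates were removed, the highest RPKM of a sample (157 to 307) came to 1445 to 1901 estimated reads per kilobase in every library, and differences between high values, Tlr1 and Tlr13 included, are compressed.

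From the deposited RPKM, log2(RPKM + 0.5) was fitted with limma 3.58.1 (R 4.3.3; empirical Bayes with trend, Benjamini-Hochberg adjustment over all genes of the fit). IR and genotype comparisons used the 12 samples of a cell type, and fraction comparisons the 16 Trp53+/+ or 8 Trp53-/- samples. Genes needed RPKM above 1 in at least 1 Trp53+/+ sample of the fit, or 1 Trp53-/- sample for the last, and calls needed an adjusted p below 0.05 together with a log2 difference beyond 0.58 in either direction. This limma test replaced the study's DESeq2 because RPKM are not counts. Single members in Trp53+/+ groups were also compared by an exact two-sided permutation test (scipy 1.17.1). The limma step was tested on simulated data.

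Depth was estimated from the steps between low RPKM values, of which 60.5% to 69.9% lay within 0.1 of a whole read (20% by chance), too few to recover reads, so read numbers are approximate. The study's methods count 4 Trp53+/+ and 2 Trp53-/- mice per condition, as many as samples in a group. The labels do not say which B and non-B samples came from the same mouse. Same-numbered mock and IR samples deviated together in Trp53+/+ non-B cells (correlations over genes of 0.156 to 0.323), and the block is given there. However, mock replicate 2 correlated best with IR replicate 1, and mock replicate 3 with IR replicate 4. The rule for named genes took all 10 members, per pathway list the 3 genes with the largest change among those called after IR in Trp53+/+ cells, and the genes most correlated with each member. Members and lists were chosen with earlier results of these data known.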

Additional observations from a re-analysis of the deposited data

Results flagged for a closer look

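In 2 of 40 groups of 4 samples (10 receptors in 4 Trp53+/+ groups), 1 value stood apart from the rest by Dixon's criterion, and about 2 are expected by chance, since the criterion picks about 1 in 20 groups by chance alone. Both were in mock B cell replicate 4: Tlr8 at 10.6 RPKM against a nearest value of 19.0, and Tlr9 at 67.9 RPKM against a nearest value of 57.5. The same library had the lowest sums of its group over macrophage and monocyte markers (725 RPKM) and over neutrophil markers (58.2 RPKM). Their part in these values was not tested.

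A test of the difference itself separated the responses of the groups in 8 results. The IR response of Tlr4 in B cells was lower in Trp53+/+ than in Trp53-/- cells by 0.97 on the log2 scale (value -0.97, limma adjusted p = 0.0102; 0.135 with all 24 samples in 1 fit). The IR response in Trp53+/+ B cells minus that in non-B cells was -1.27 for Tlr2, -1.31 for Tlr3, -1.81 for Tlr4, -1.38 for Tlr6, -1.03 for Tlr7, -1.25 for Tlr8 and -1.03 for Tlr13, with limma adjusted p from 6.47e-04 to 0.0245.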

How the results depend on the processing

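No receptor that passed a test changed direction under any alternative run. Exact permutation tests gave the same side of 0.05 on log2 and linear scales. In Trp53+/+ B cells after IR 5 receptors passed, 3 under quantile normalization and 3 to 6 with 1 library left out (3 without mock replicate 1). In Trp53+/+ non-B cells after IR 2 passed, 0 without a filter on low values, with the olfactory and vomeronasal receptor level as a covariate or at adjusted p under 0.01, 1 with a pseudocount of 0.1, 5 with all 24 samples in 1 fit (Tlr2, Tlr4 and Tlr13 added) and 0 to 5 with 1 library left out. In Trp53-/- B cells 1 passed, 2 under median-ratio scaling, 0 under quantile normalization, with all 24 samples in 1 fit, with the covariate or at adjusted p under 0.01, and 0 to 2 with 1 library left out. The genotype difference in B cells had 1 (Tlr4), 0 with all 24 samples or at adjusted p under 0.01 and 0 to 1 with 1 library left out. Between Trp53-/- fractions, 4 passed in mock cells, 2 without the filter or at adjusted p under 0.01, 7 under quantile normalization and 2 to 5 with 1 library left out, and 4 passed after IR, 1 with the covariate and 2 to 6 with 1 library left out. The cause of these changes was not tested. Between Trp53+/+ fractions the counts stayed within 1.5 times (5 to 6 in mock cells and 8 to 9 after IR with 1 library left out).

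Alternatives added after seeing the data were a correction for removed duplicates, leaving out pairs of mock non-B libraries or the 4 libraries with olfactory receptor reads, and a crossed pairing. Without mock non-B replicates 1 and 2 the non-B count was 6 and the genotype difference 3, and without replicates 3 and 4 the non-B count was 0 and the B against non-B response count went from 7 to 5 (Tlr8 and Tlr13 lost). With a replicate block the non-B count was 3 (Tlr13 added) and the Trp53-/- mock fraction count 5 (Tlr4 added), and no other call on a receptor changed. Same-numbered mock and IR samples in Trp53+/+ B cells had correlations of 0.015 to 0.087. Across Trp53+/+ fractions they ran from -0.103 to 0.35, with 4 of 8 pairs over 0.1, so not every pair deviated together. Across the fractions of both genotypes, 7 of 12 samples correlated best with their own number. In Trp53-/- groups of 2, both pairs necessarily give the same value (0.144 in mock, 0.033 after IR). Between same-numbered mock and IR samples of Trp53-/- non-B cells the correlation was -0.253. With those numbers crossed, 4 members passed in Trp53+/+ non-B cells and 1 in the genotype difference. Tlr5 in B cells rests on an estimated 3.2 to 17.3 reads, so a change there was not detectable at this depth.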
